A study of Mus musculus with 8 samples.

Results

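Voltage-gated and potassium channel subunits were examined in RNA of the hypothalamus from males of the inbred strain C57BL/6J that had gained much weight (high gainers) or little weight (low gainers). The members were chosen by a rule on gene symbols, set with earlier results of these data known. The rule took every probe annotated to 1 gene whose symbol begins with Kcn, Cacna, Cacnb or Cacng. Such probes of the Scn alpha and beta subunits and of the Hcn genes were taken as well. This gave 95 probes of 92 genes among the 13840 genes (14411 probes) that a probe of the array named alone, in a table of 33012 probes. Both groups were unmodified males fed from 8 weeks of age on the high-fat diet D12331 for 6 weeks, a low-fat diet for 2 weeks and the high-fat diet for 6 weeks more. In the study's protocol with this schedule, the low-fat diet was given in restricted amount. RNA of 20 high gainers was combined into 1 pool and RNA of 20 low gainers into another, and each pool was read on 4 arrays. Arrays of the same pool are repeat readings of the same RNA, so p-values below rest on array-to-array spread and say nothing of variation between mice. The question was whether channel transcripts differed between the hypothalami of mice that shared genotype and diet but not weight gain.

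Neurons fire because sodium channels open on depolarisation, calcium channels turn the spike into calcium entry and transmitter release, and potassium channels bring the membrane back to rest. Potassium channels that are open at rest, inward rectifiers and hyperpolarisation-activated HCN channels set the resting potential and the pace of firing. In the hypothalamus, potassium channels closed by ATP, or opened by G proteins below peptide receptors, are known to couple nutrients and feeding peptides to the firing of appetite neurons. Most channels are assemblies of pore-forming alpha subunits with auxiliary subunits that steer trafficking and gating, and transcript levels of one subunit do not give the current.

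Low gainer array 2 stood apart from the other 7 arrays and was kept out of the comparison. For the 34 channel probes that those 7 arrays all measured, log2 intensity on each of them correlated with the mean of the rest at r = 0.954 to 0.991. Over the 14 channel probes that also had a value on low gainer array 2, its r was 0.294. Over all 5375 probes with a value on every array it was 0.239. These are descriptions across probes, which share an array and are not independent. Hypothalamic markers were present, with 10 of 14 probes measured on all 7 arrays and Ghrh and Nkx2-1 without a value. Of those 10 probes 9 lay lower in the high gainer pool (median log2 difference -0.25), 2 of them at an unadjusted p under 0.05 and 0 at the adjusted threshold in limma, with overlapping list sums of 40.1 to 47.3 against 44.9 to 55.6. Pituitary, red cell and oligodendrocyte markers differed between the pools with no overlap of their summed intensity. The 3 measured pituitary hormone probes rose in the high gainer pool at an adjusted p under the threshold in limma and were the sole probes of the array to do so, with list sums of 8.30 to 10.4 against 0.837 to 1.38 on the low gainer arrays. Red cell markers summed to 8.47 to 14.4 against 17.6 to 36.2, and oligodendrocyte markers to 47.2 to 75.2 against 12.4 to 41.4. The red cell sum rested on 2 probes, with log2 differences of -1.14 and -0.16. The oligodendrocyte sum rested on 5 probes, with differences of 0.11 to 1.36. In both lists 0 probes passed the adjusted threshold in limma. Neuron markers overlapped, at 131.2 to 174.7 against 143.0 to 171.2. The part of these differences in the channel values below was not tested, and in pooled tissue fewer cells of a type and less RNA per cell cannot be told apart.

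A large share of the channel family had no complete set of values. A value was present on all 7 arrays for 34 of the 95 probes, or 35.8%, against 43.9% of all probes annotated to 1 gene. Another 44 probes had a value on 1 to 6 arrays and 17 on none of the 7 (17.9%, against 21.4%). The median channel probe lay at percentile 30.8 to 42.6 of the values on its array, where the median of all probes annotated to 1 gene lay at 53.9 to 55.8. An empty cell is not evidence of absence, since the step that emptied it is not stated.

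By class, the alpha2delta calcium channel subunits were measured on all 7 arrays for 2 of 2 probes, the beta subunits for 1 of 2 and the gamma subunits for 3 of 7. Among potassium channels this held for 4 of 9 tandem-pore probes, 5 of 12 inward rectifier probes and 4 of 11 probes of auxiliary subunits of the voltage-gated potassium (Kv) channels. It also held for 3 of 9 probes of calcium- and sodium-activated channels and 9 of 29 of Kv alpha subunits. Pore-forming calcium channel subunits (Cacna1) had 2 of 7 and sodium channel alpha subunits 1 of 4. Hcn2, Hcn3 and the single sodium channel beta subunit, Scn3b, had values on some arrays only. The members without a value on any of the 7 included channels best known outside the brain, such as Scn10a of sensory neurons, Kcnj1 and Kcnj15 of the kidney, Kcne1 of heart and inner ear and Kcnn4 of blood cells. They also included well-known neuronal channels: Kcnq3, a subunit of the M-current, Cacna1d, an L-type calcium channel, Kcnj5, a G-protein-gated inward rectifier, and Kcna6.

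**Figure D1:**
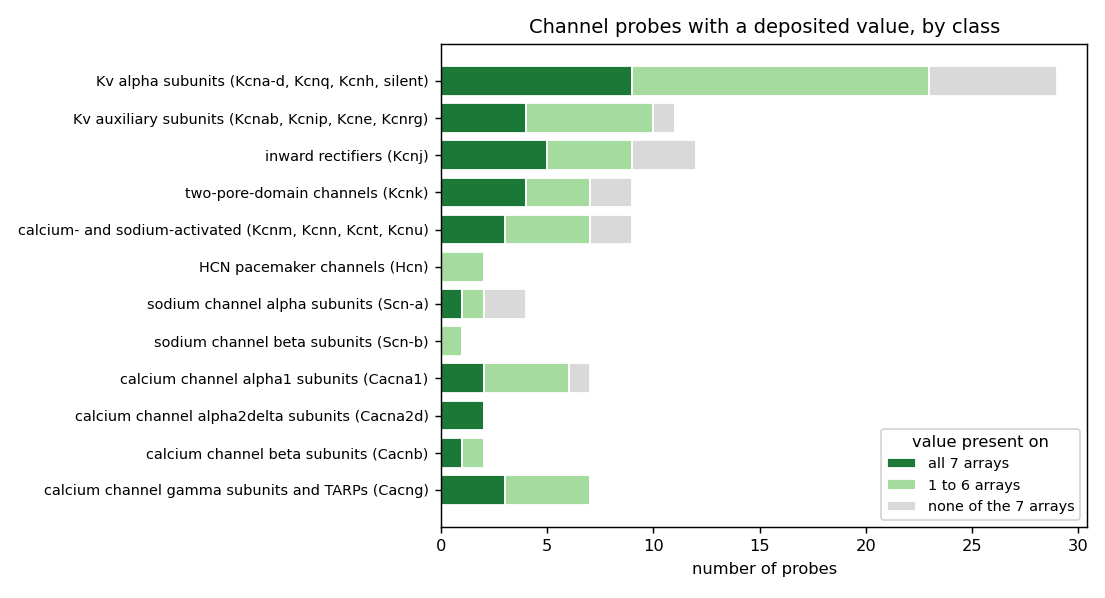
Number of channel probes in each class, stacked by how many of the 7 arrays (high gainer 1 to 4, low gainer 1, 3 and 4) held a deposited value. Of 95 probes, 34 had a value on all 7 arrays, 44 on 1 to 6 and 17 on none, and every gamma subunit probe had a value on at least 1 array.

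Detection of channel probes was somewhat fuller in the high gainer pool, which was not tested. Channel cells were filled for 60.8% on the high gainer arrays, as against 53.3% on low gainer arrays 1, 3 and 4, against 58.7% and 57.6% over all probes annotated to 1 gene. Low gainer array 3 held 43 of the 95 probes, low gainer arrays 1 and 4 held 54 and 55, and the high gainer arrays held 53 to 62, so the ranges overlapped. A value on all 4 high gainer arrays and on at most 1 of the 3 low gainer arrays was found for Cacna1a, Kcnh2, Kcnip2 and Kcnj4. That is 4 of 95 probes, beside 0.687% of all probes annotated to 1 gene. No member showed the opposite pattern, for which the share over all such probes was 0.215%. No member was present on every array of one pool and absent from every array of the other.

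Kcnj4, a strongly rectifying potassium channel of forebrain neurons, read 0.636, 0.449, 0.463 and 0.433 on high gainer arrays 1 to 4, and 0.303 on low gainer array 4 with no value on low gainer arrays 1 and 3. Its single low gainer value lay below all 4 high gainer values. Kcnip2, a calcium-binding partner of A-type potassium channels, read 0.391, 0.465, 0.214 and 0.264 against 0.259 on low gainer array 4. Kcnh2, the pore subunit of the ERG potassium current, read 0.383, 0.265, 0.295 and 0.299 against 0.332 on low gainer array 1. For both, the single low gainer value lay inside the high gainer range. Cacna1a, the pore of P/Q-type calcium channels at nerve terminals, read 0.262, 0.178, 0.266 and 0.0846 against 0.230 on low gainer array 4, again inside the range. All 4 of these signals were dim, at a mean percentile of 12.9 to 34.9, and none had enough low gainer values for a test.

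No channel probe differed between the pools after correction over the whole array. With limma on 11169 probes measured on all 7 arrays, 0 of the 34 channel probes had an adjusted p under 0.05, where 0.0269% of all probes did, and the smallest adjusted p was 0.750. At an unadjusted p under 0.05 there were 3 channel probes, Cacng5, Scn8a and Kcnc4, beside 6.48% of all probes. One channel probe, Cacng5, passed the threshold of the study's methods (unadjusted p under 0.01 and at least 1.5-fold), beside 1.03% of all probes. The study's methods name an analysis of variance, and its equal-variance form for a pair of groups (here the methods' t-test) gave, on the same values, 0 channel probes after Benjamini-Hochberg adjustment and 1 at the methods' threshold. The precision was limited by the number of arrays: the median channel probe had a standard error of 0.26 on the log2 scale and a 95% interval reaching 0.56 to either side.

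Most differences were small and lay above 0. Of the 34 tested channel probes, 25 had a higher mean in the high gainer pool and 9 a lower one (73.5% higher, against 49.6% of all probes), with a median log2 difference of 0.11 against 0.00 over all probes. The channel probes of an array share that array, and the median moved with single arrays: the median deviation from a probe's own mean was -0.22 for low gainer array 3, -0.07 for array 4 and -0.01 for array 1, while high gainer arrays 1 to 4 had 0.11, 0.01, 0.02 and 0.09. Without low gainer array 3 the median was 0.07, and without high gainer array 2 it was 0.19. With all 8 arrays it was -0.10 over 14 probes. In the fit that also took probes with at least 2 values in each pool, 32 of 48 channel probes lay above 0 with a median of 0.12, and without low gainer array 3 that median was -0.04, where the median over all probes was -0.10. Neither fit gives a test of the median.

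**Figure D2:**
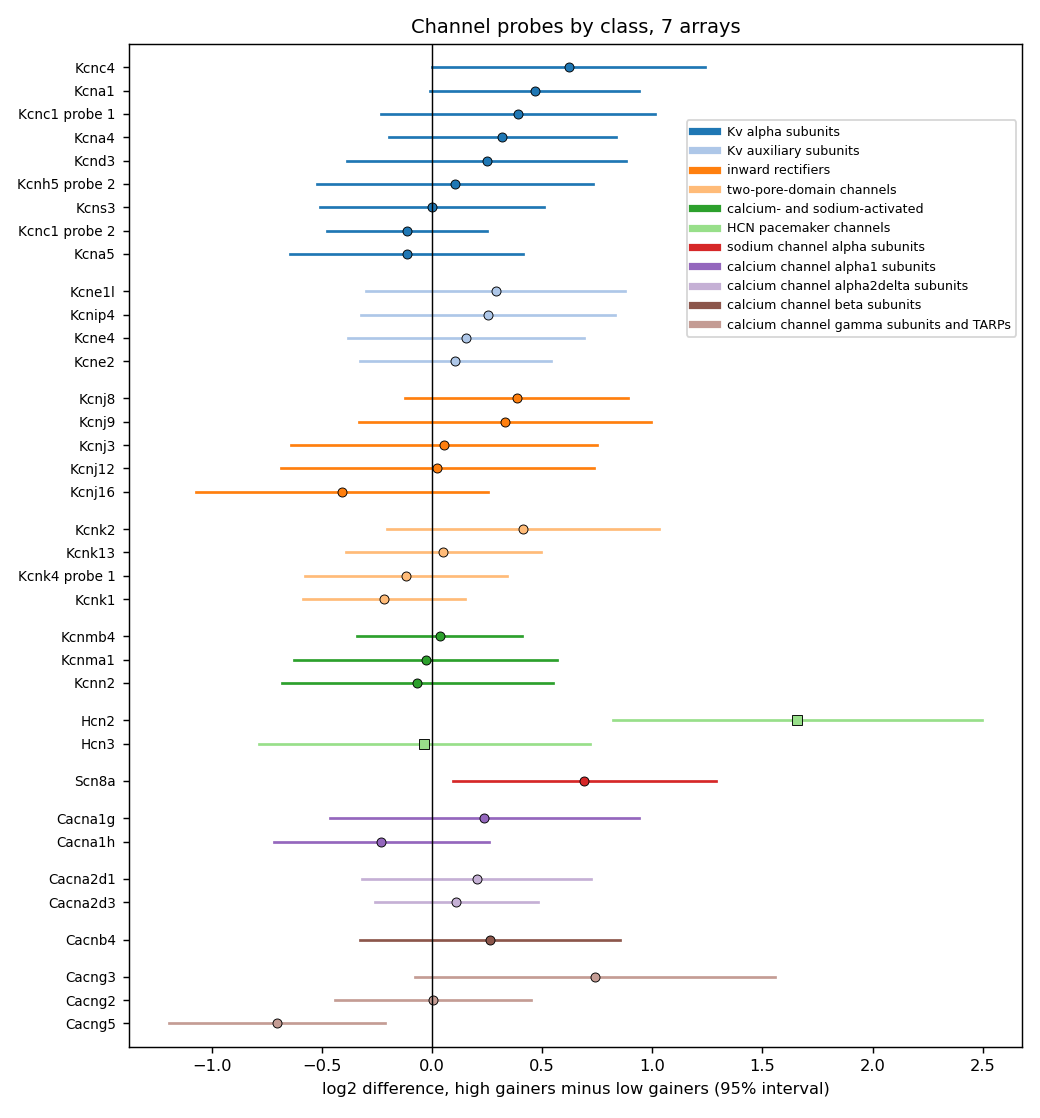
Log2 difference in intensity (high gainers minus low gainers, points) with its 95% interval (lines) for each channel probe measured on all 7 arrays (circles), and for Hcn2 and Hcn3 from the fit that dropped missing arrays (squares), coloured by class. The intervals of Hcn2, Scn8a, Kcnc4 and Cacng5 leave out 0, and the other intervals cross it.

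Hcn2 and Hcn3 were read incompletely, and Hcn2 had the largest difference of any channel probe. Hcn2 encodes a pacemaker channel that opens on hyperpolarisation, is tuned by cyclic AMP and carries the inward current that sets rhythmic firing. It read 1.41, 1.65, 0.895 and 0.961 on high gainer arrays 1 to 4, against 0.558 and 0.210 on low gainer arrays 1 and 4, with no value on low gainer array 3. Every high gainer value lay above both low gainer values. The log2 difference was 1.66 (95% interval 0.82 to 2.50), or 3.16-fold, over 6 arrays with low gainer array 3 dropped from this probe's fit. Its limma p was 0.00101 and its adjusted p over the 14082 probes of that fit 0.925, so the probe passed the methods' threshold and not the adjusted one. In that fit 0 of 48 channel probes had an adjusted p under 0.05 (0.0213% of all probes), 3 had an unadjusted p under 0.05, and 2, Hcn2 and Cacng5, passed the methods' threshold (0.717% of all probes). Leaving out single arrays moved the Hcn2 difference between 1.56 and 1.86, while leaving out low gainer array 1 or 4 left 1 low gainer value and no test. On low gainer array 2 it read 0.716, between the other low gainer values and the high gainer values. Hcn3, a slower member of the family, read 0.362, 0.301 and 0.327 on high gainer arrays 1, 2 and 4 and 0.284 and 0.345 on low gainer arrays 1 and 4. The Hcn3 ranges overlapped and the log2 difference after renormalization was -0.03 (95% interval -0.78 to 0.71). The deposited means were in the other order, 0.330 ± 0.0309 (SD, n = 3) against 0.314 ± 0.0436 (SD, n = 2), so no direction is given.

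**Figure D3:**
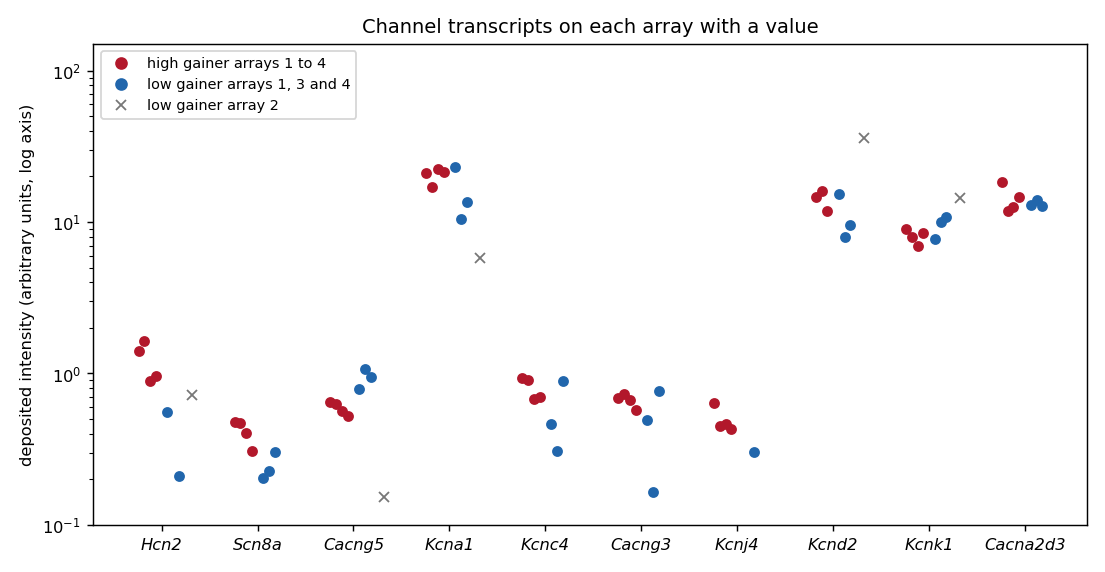
Deposited intensity (log axis, arbitrary units) of 10 channel transcripts on each array that held a value, with high gainer arrays in red, low gainer arrays 1, 3 and 4 in blue and low gainer array 2 as a grey cross. Hcn2 and Scn8a lay higher and Cacng5 lower on every high gainer array than on every low gainer array shown in blue, while the points of Kcna1, Kcnc4, Cacng3, Kcnd2, Kcnk1 and Cacna2d3 overlapped.

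Promoter sequences are shown for the pair of genes past the methods' threshold, Hcn2 and Cacng5, as RefSeq gives them on GRCm38.p6, from 250 bases before to 50 bases after an annotated start. Hcn2 lies at chr10:79716384-79716683 on the plus strand and Cacng5 (the first of its annotated starts) at chr11:107915006-107915305 on the minus strand. Capitals mark the CG pairs, the sites of CpG methylation.
Hcn2 promoter: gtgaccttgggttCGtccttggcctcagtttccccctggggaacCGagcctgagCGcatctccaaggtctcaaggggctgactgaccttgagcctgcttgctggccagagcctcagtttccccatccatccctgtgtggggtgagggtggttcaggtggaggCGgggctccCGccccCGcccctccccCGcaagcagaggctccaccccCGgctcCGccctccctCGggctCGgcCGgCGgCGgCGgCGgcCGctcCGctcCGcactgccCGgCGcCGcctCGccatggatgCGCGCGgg
Cacng5 promoter: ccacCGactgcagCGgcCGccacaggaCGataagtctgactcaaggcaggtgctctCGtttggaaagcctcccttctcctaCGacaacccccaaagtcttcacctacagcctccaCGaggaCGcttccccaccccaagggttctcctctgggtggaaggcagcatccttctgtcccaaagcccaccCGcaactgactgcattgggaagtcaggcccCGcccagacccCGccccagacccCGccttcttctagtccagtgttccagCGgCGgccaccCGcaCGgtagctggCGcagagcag
The Hcn2 window holds 26 CG pairs in 72.3% G and C, and the Cacng5 window 17 in 63.3%. The ratio of observed to expected CG pairs was 0.668 in the Hcn2 window and 0.600 in the Cacng5 window shown. The window of the other annotated Cacng5 start, not shown, had a ratio of 0.209. The median over the 70 channel genes with a RefSeq promoter was 0.508. Medians here take each gene as the mean over its annotated starts, so they are not on the same measure as a single window. Over all 11163 genes with a probe naming 1 gene and a promoter, the median ratio was 0.636. In that whole set the ratio fell with detection, from 0.755 for genes measured on all 7 arrays to 0.540 for 1 to 6 and 0.291 for none. Among channel genes the same medians were 0.525 (29 genes), 0.540 (30 genes) and 0.399 (11 genes), a narrower range. GGGCGG, the core of the GC box, was counted for a gene if any of its start windows held it on either strand. It occurred for 45 of 70 channel genes (64.3%), beside 55.3% of the array's genes with a promoter and 38.2% of genes in the whole promoter table. The order depended on detection. For genes measured on all 7 arrays the share was 58.6% of channel genes beside 69.2% of the array's genes. For 1 to 6 arrays it was 73.3% beside 50.8%, and for none 54.5% beside 31.8%. TATAAA, counted in the same way, occurred for 5 channel genes (7.14%), beside 13.9% and 15.7%. Genes with more annotated starts had more windows in which a motif could occur. These are counts of letters in windows of fixed length and not binding sites.

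The gamma class held both extremes among the 34 fully measured probes, Cacng5 with the most negative difference and Cacng3 with the most positive one, and neither passed the adjusted threshold. Most brain gamma subunits are better known as TARPs, which escort AMPA-type glutamate receptors to the synapse and slow their closing, than as parts of calcium channels. Cacng5, an atypical TARP, read 0.648, 0.628, 0.564 and 0.524 in the high gainer pool and 0.793, 1.07 and 0.946 on low gainer arrays 1, 3 and 4. All 4 high gainer values lay below all 3 low gainer values, and Cacng5 was the sole channel probe of 34 with that order, beside 2.7% of all probes. The log2 difference was -0.70 (95% interval -1.19 to -0.21), 1.63-fold lower in high gainers, with a limma p of 0.00824 and an adjusted p of 0.750. Leaving out single arrays moved it between -0.82 and -0.53. Low gainer array 2 read 0.153, below all high gainer values, and with all 8 arrays the difference was -0.21. Cacng3, a TARP of forebrain neurons, read 0.689, 0.727, 0.664 and 0.578 against 0.490, 0.164 and 0.767. Low gainer array 4 read above all high gainer arrays, and the difference of 0.74 had an interval of -0.08 to 1.56. Without low gainer array 3 the Cacng3 difference was 0.13. Cacng2, known as stargazin, had means of 0.920 ± 0.116 (SD, n = 4) and 0.895 ± 0.0727 (SD, n = 3) and a log2 difference of 0.01 (95% interval -0.44 to 0.45). Cacng7, missing on low gainer array 3, differed by -0.49 (95% interval -1.47 to 0.50).

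Scn8a was the only sodium channel gene measured on all 7 arrays. It encodes the sodium channel that is concentrated at axon initial segments and nodes of Ranvier, where spikes begin. It read 0.479, 0.470, 0.408 and 0.309 in the high gainer pool and 0.203, 0.226 and 0.301 on low gainer arrays 1, 3 and 4. High gainer array 4 and low gainer array 4 nearly met, yet no value crossed. The log2 difference was 0.69 (95% interval 0.10 to 1.29), 1.62-fold, with a limma p of 0.0259 and an adjusted p of 0.752. Leaving out single arrays gave 0.55 to 0.84. Of the other sodium channel probes, Scn11a and Scn3b had a value on 1 array each, and Scn3a and Scn10a on none of the 7.

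On the normalized scale 3 channel probes of 34 had all high gainer arrays above all low gainer arrays, namely Scn8a, Kcna4 and Kcne1l, beside 2.07% of all probes. Kcna4, a Kv subunit with fast inactivation, read 0.610, 0.643, 0.635 and 0.586 against 0.591, 0.329 and 0.552. As deposited, low gainer array 1 exceeded high gainer array 4, so the order depended on the renormalization. The difference of 0.32 had an interval of -0.20 to 0.83 and was 0.12 without low gainer array 3. Kcne1l, a single-span auxiliary subunit, read 0.284, 0.353, 0.303 and 0.288 against 0.280, 0.178 and 0.261. The gap between the closest values was small beside the spread within each pool, and the difference was 0.29 (95% interval -0.30 to 0.88), or 0.09 without low gainer array 3.

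The Kv alpha subunits form the delayed rectifier and A-type currents that end the spike and space the next one. Of their 9 fully measured probes, 7 lay above 0, with a median difference of 0.25, and none passed the adjusted threshold. Kcna1, a dendrotoxin-sensitive subunit found along axons beside the nodes, lay at a mean percentile of 94.9 of the values on its array. It read 21.1, 16.9, 22.2 and 21.3 in the high gainer pool and 23.0, 10.5 and 13.5 on low gainer arrays 1, 3 and 4. Low gainer array 1 read above every high gainer array, while arrays 3 and 4 read below all of them. The log2 difference was 0.47 (95% interval -0.01 to 0.94), with a limma p of 0.0537 and an adjusted p of 0.756. Without low gainer array 1 it was 0.77 with an adjusted p of 0.0465, the one setting of 18 in which a channel probe passed the threshold. The next lowest adjusted p for Kcna1 was 0.370 and the highest 0.999. That setting also called 171 of 11247 probes, so the change was not particular to Kcna1, and without low gainer array 3 the difference was 0.19.

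Kcnc4, a subunit of the fast high-threshold Kv channels, read 0.931, 0.901, 0.677 and 0.697 against 0.463, 0.308 and 0.890. Low gainer array 4 lay among the high gainer arrays. Its difference was 0.62 (95% interval 0.00 to 1.24) with a limma p of 0.0493 and an adjusted p of 0.756, and without low gainer array 3 it was 0.34. Kcnc1 of the same subfamily, which supports fast spiking, had a pair of probes that disagreed. The first differed by 0.39 (95% interval -0.23 to 1.01) and the second by -0.11 (95% interval -0.48 to 0.25), so no direction is given for Kcnc1. The first probe's difference was 0.81 without low gainer array 1 and 0.13 without array 4. The A-type subunit Kcnd2 had no value on high gainer array 1 and read 14.7, 16.1 and 11.8 on high gainer arrays 2 to 4 and 15.4, 8.01 and 9.58 on low gainer arrays 1, 3 and 4. Again low gainer array 1 sat with the high gainer arrays, and the difference of 0.44 had an interval of -0.12 to 1.00. Kcnd3 differed by 0.25 (95% interval -0.38 to 0.88).

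The Kv auxiliary subunits lay above 0 for all 4 fully measured probes, Kcne1l, Kcnip4, Kcne4 and Kcne2, with a median of 0.21 and intervals that all crossed 0. Kcne2, a subunit well known from the choroid plexus epithelium, read 6.19, 4.73, 5.47 and 6.67 against 6.64, 5.96 and 3.92. The ranges overlapped and the difference was 0.11 (95% interval -0.33 to 0.54). Choroid plexus markers summed to 262.5 to 302.3 on the high gainer arrays and 290.3 to 397.2 on the low gainer arrays, with 0 of 5 measured probes above 0. Kcnip4, which assembles with A-type channels, had means of 2.04 ± 0.156 (SD, n = 4) and 1.85 ± 1.10 (SD, n = 3), the wide low gainer spread coming from low gainer array 4 at 3.12 beside 1.31 and 1.13. Kcnab2, a cytoplasmic beta subunit without a value on low gainer array 3, differed by 0.84 (95% interval -0.06 to 1.75). Kcnab1, missing on the same array, differed by -0.33 (95% interval -1.21 to 0.55). Kcnip3, missing on high gainer array 1, differed by 0.54 (95% interval -0.37 to 1.46). In the fit with at least 2 values in each pool, 6 of 7 probes of this class lay above 0 and 1 below.

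The inward rectifiers pass potassium most readily near rest. Of their 5 fully measured probes 4 lay above 0, with a median of 0.05. Kcnj8, the pore of the ATP-sensitive channel of vessels and pericytes, read 0.953, 0.820, 0.975 and 1.35 against 0.746, 0.612 and 0.931. Its ranges overlapped through low gainer array 4, and the difference was 0.38 (95% interval -0.12 to 0.89). Endothelial markers overlapped too, with sums of 9.64 to 12.3 against 9.75 to 12.9. Abcc9, the sulfonylurea receptor that partners Kcnj8, had no value on the 7 arrays. The G-protein-gated subunits Kcnj3 and Kcnj9 differed by 0.05 (95% interval -0.64 to 0.75) and 0.33 (95% interval -0.33 to 0.99), the latter moving to 0.66 without low gainer array 1 and 0.14 without array 4. Kcnj16, a subunit of glial potassium buffering channels, was the sole inward rectifier below 0. It read 0.441, 0.375, 0.207 and 0.292 against 0.336, 0.421 and 0.420, an overlap, and differed by -0.41 (95% interval -1.07 to 0.26). Astrocyte markers summed to 198.6 to 227.7 against 184.9 to 278.1.

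The tandem-pore channels carry the background potassium leak. Kcnk1, a weakly rectifying member of the class, read 8.94, 7.9997, 6.99 and 8.47 in the high gainer pool and 7.75, 10.1 and 10.8 on low gainer arrays 1, 3 and 4. Low gainer array 1 once more lay inside the high gainer range. The difference was -0.22 (95% interval -0.58 to 0.15). Kcnk2, a stretch- and lipid-sensitive leak channel, read 0.612, 0.571, 0.459 and 0.516 against 0.325, 0.270 and 0.661, with low gainer array 4 highest of all, and differed by 0.41 (95% interval -0.21 to 1.03). Without low gainer array 3 the Kcnk2 difference was 0.20, and without array 4 it was 0.74. Kcnk13 differed by 0.05 and the first Kcnk4 probe by -0.12. The second Kcnk4 probe, without a value on high gainer array 1, differed by -0.22 (95% interval -0.91 to 0.46), and the median over the 4 fully measured probes was -0.03.

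Channels opened by calcium shape the pause after a spike, and the differences in this class were small. Kcnma1, the pore of the large-conductance BK channel, read 4.59, 4.80, 5.51 and 5.91 against 3.43, 4.32 and 9.68, and its difference was -0.03 (95% interval -0.63 to 0.57). The low gainer values enclosed all the high gainer values. Kcnmb4, the main BK auxiliary subunit of neurons, read 11.4, 7.81, 10.1 and 10.9 against 10.8, 10.9 and 8.05, with a difference of 0.04 (95% interval -0.34 to 0.41). Kcnn2, a small-conductance channel that opens through calmodulin, differed by -0.07 (95% interval -0.68 to 0.55). The intervals do not show that the pools were alike for these channels.

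Outside the gamma class, the fully measured calcium channel subunits also overlapped between the pools in the main fit. Cacna1h, a T-type channel that opens near rest and supports burst firing, had means of 0.620 ± 0.0845 (SD, n = 4) and 0.697 ± 0.0292 (SD, n = 3) and differed by -0.23 (95% interval -0.72 to 0.26). In the fit with at least 2 values in each pool its high gainer values all lay below its low gainer values. The order of the Cacna1h values thus depended on the renormalization. Its T-type relative Cacna1g differed by 0.24 (95% interval -0.46 to 0.94), and Cacna1b, the N-type channel of nerve terminals, by 0.22 (95% interval -0.55 to 0.99) over 6 arrays. Cacna2d3, an alpha2delta subunit that raises surface expression of calcium channels, lay at a mean percentile of 93.6 and read 18.5, 11.8, 12.5 and 14.7 against 13.0, 13.96 and 12.7. The low gainer values fell within the high gainer range, and the difference was 0.11 (95% interval -0.26 to 0.48). Cacna2d1, the alpha2delta subunit that binds gabapentin, differed by 0.20 (95% interval -0.32 to 0.72), and the beta subunit Cacnb4 by 0.26 (95% interval -0.33 to 0.85). Cacnb1, a beta subunit without a value on low gainer array 3, differed by -0.20 (95% interval -0.87 to 0.47). The Cacnb4 difference was 0.05 without high gainer array 1 and 0.06 without low gainer array 3. The Cacna2d1 difference was 0.06 without low gainer array 3.

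Genes whose proteins bind or anchor these channels were listed separately. Of 29 probes for 25 partner genes, 17 were measured on all 7 arrays. Among them 7 lay above 0 and 10 below, with a median of -0.09, 0 had an adjusted p under 0.05 and 1 had an unadjusted p under 0.05. That probe was for Dpp6, a peptidase-like partner of A-type potassium channels, which read 3.31, 2.90, 3.45 and 3.29 in the high gainer pool and 3.13, 1.03 and 1.05 on low gainer arrays 1, 3 and 4. Low gainer array 1 sat inside the high gainer range, as it did for Kcnd2 and Kcnk1, while arrays 3 and 4 read lower. The difference was 1.08 (95% interval 0.41 to 1.75), 2.11-fold, with a limma p of 0.00392 and an adjusted p of 0.750. Without low gainer array 1 it was 1.61 with an adjusted p of 0.00212, while the next lowest of its 18 settings was 0.190 and the highest 0.999. A second Dpp6 probe, read on 6 arrays, differed by 0.14 (95% interval -0.73 to 1.01). The next by p was Fgf12, an intracellular modulator of sodium channels, at -0.34 (95% interval -0.86 to 0.17). Its second probe differed by -0.19 (95% interval -0.69 to 0.31). Then came Adam22 (0.48, 95% interval -0.28 to 1.25). Cntnap2, which clusters Kv channels on axons, followed at -0.27 (95% interval -0.69 to 0.16).

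Low gainer array 2 did not rank the channel probes as the other arrays did. It held 40 of the 95 probes, lacked 20 of the 34 that all other arrays held, and held 8 that none of the others did (Kcng3, Kcng4, Kcnj1, Kcnk10, Kcnk7, Kcnt1, Kcnv2 and Scn3a). The departure was not particular to channels. The array held 42.1% of channel probes and 42.5% of all probes annotated to 1 gene. Of those latter probes, it lacked 3254 of the 6332 that all other arrays held. It also held 1203 of the 3087 that none of the others did. A reading at least 10 times the mean of the other values was found there for 5 probes, those of Kcne1l, Kcnj3 and Kcnk5, the first Kcnh5 probe and the second Kcnk4 probe. Kcnj3 read 21.5 there and between 0.170 and 0.372 on the other 7 arrays. The second Kcnk4 probe read 67.9 there and 0.216 to 0.255 on the 6 others with a value. In the other direction Kcna1 read 5.77 and Kcne2 0.773, each below all 7 other values. The departures ran both ways, and with all 8 arrays 14 channel probes were tested, 0 had an adjusted p under 0.05 in limma and 0 an unadjusted p under 0.05.

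**Figure D4:**
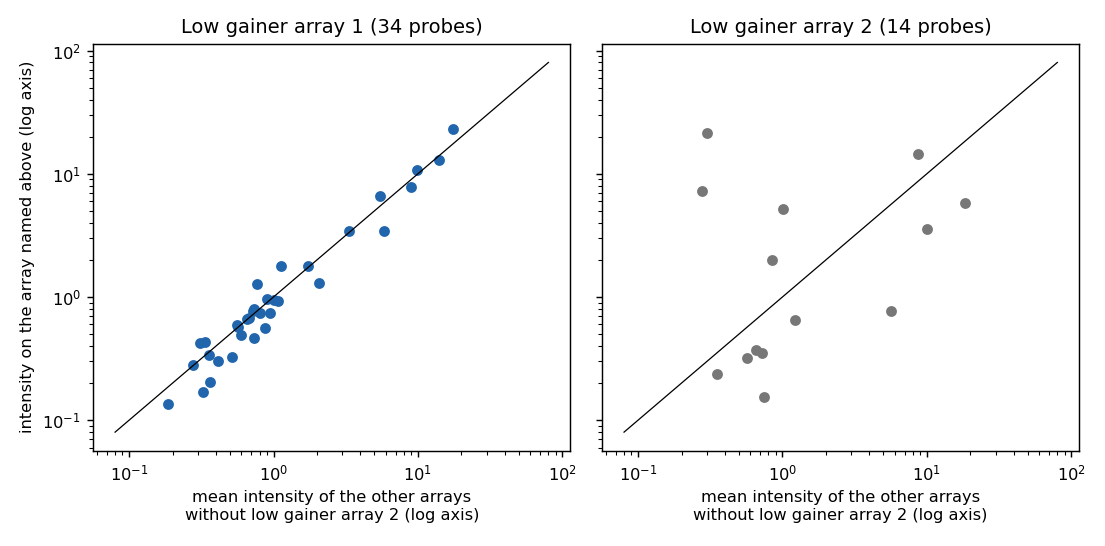
Intensity of channel probes on low gainer array 1 (left, 34 probes) and low gainer array 2 (right, 14 probes) against the mean of the other arrays without low gainer array 2, both axes logarithmic, with the line of equality. Array 1 follows the line, while array 2 scatters to both sides of it, with r = 0.294 over its 14 probes.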

How the data were processed

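Hypothalamus RNA of 2 pools was read on 8 Applied Biosystems Mouse Genome Survey arrays (1 colour, digoxigenin-labelled cRNA, chemiluminescence). The deposited values are linear intensities that the authors had quantile normalized between arrays. No source used here gives a genome build for the probes. Of the probes, 14411 name 1 gene, 247 name several and 18354 are unnamed here. All 95 channel probes matched the RefSeq table (GRCm38.p6) by gene identifier with 0 symbols changed, and 46 of 138 RefSeq genes fitting the symbol rule had no probe naming 1 gene and were not analysed here. Groups followed the sample labels.

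Log2 intensities were quantile normalized over the 11169 probes measured on each of 7 arrays (high gainer 1 to 4, low gainer 1, 3 and 4) and compared with limma 3.58.1 in R 4.3.3 (lmFit, eBayes with a trend), with Benjamini-Hochberg adjustment over all of them and a threshold of 0.05. Differences are high gainers minus low gainers. The threshold of the study's methods (p under 0.01, 1.5-fold) was applied as well. A second fit took the 14082 probes with at least 2 values in each pool and left missing arrays out of a probe's fit, and it supplies the values of probes not on all 7 arrays. No depth exists for arrays, and their number limits the precision. The procedure was tested on simulated data.

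The members, classes, partner list and marker lists were chosen with earlier results of these data known. Genes named with values were the 12 channel probes with the smallest p, in each class the probe with the highest mean log2 intensity and the one with the smallest p, the Hcn genes, and the 4 partner probes with the smallest p. Genes with several probes are given with all their tested probes. Other members with values (such as Kcnj4, Kcnip2, Kcnh2, Cacna1a, Kcnd2, Kcnab2 and Kcnma1) were added after their values were seen. Same-numbered arrays of the 2 pools did not deviate together (r of -0.20, 0.13 and -0.14 over probes), so the numbers were not used for pairing.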

Additional observations from a re-analysis of the deposited data

Results flagged for a closer look

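The median percentile of channel probes was 40.2 on high gainer array 2, away from the other high gainer arrays at 37.5 to 37.9 (gap over range 0.835). Kcne1l had a normalized log2 intensity of -1.60 on the same array, above the other high gainer arrays (gap over range 0.897). These were 2 of 27 groups of 4 arrays checked, and chance gives about 1 in 20 such groups.

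Low gainer array 2, which no comparison of the 7 arrays used, held a value for 8 channel probes that had none on the other arrays, Kcng3, Kcng4, Kcnj1, Kcnk10, Kcnk7, Kcnt1, Kcnv2 and Scn3a, at intensities between 0.176 (Kcnk7) and 7.19 (Kcnk10). Over all probes annotated to 1 gene, 1203 of the 3087 without a value on the other arrays had one on low gainer array 2. The origin of these values was not tested.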

How the results depend on the processing

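The count of 0 channel probes at the adjusted threshold held in 17 of 18 alternatives. Leaving out single arrays gave 0 to 1, the 1 being Kcna1 without low gainer array 1 (0.77; leave-one-out range 0.19 to 0.77), where the partner Dpp6 also passed (1.61; range 0.77 to 1.61). In the fit with at least 2 values in each pool, leaving out single arrays (added after seeing the data) gave 0 each time.

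The count past the methods' threshold, 1 in the comparison as reported, was less stable. It was 0 with median centring, deposited values as they stand, the brightest 50% of probes, a pseudocount (0.180, the 10th percentile) and all 8 arrays, 2 with at least 2 values in each pool and without the trend, and 3 with array weights. Leaving out single arrays gave 0 to 4. With the array number as a replicate block it was 0 and the median difference 0.19, although the numbers do not pair the arrays. The block called 9 of all probes, none of them a channel. The median difference was -0.10 with all 8 arrays and 0.068 to 0.19 leaving out single arrays, and the count of fully measured probes was 14 with all 8.

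Of 446 alternative values for named genes, 429 kept their direction and side of the threshold, 2 newly passed it and 15 reversed. Kcne1l was -1.01 and Adam22 -0.67 with all 8 arrays. Cacng2 was -0.033 with the replicate block, -0.0080 with array weights and -0.053 to 0.057 leaving out single arrays, and Kcnn2 was 0.019 with array weights and -0.33 to 0.31 leaving out single arrays. The leave-one-out ranges also crossed 0 for Kcne2 (-0.12 to 0.26), Cacna2d3 (-0.020 to 0.19), Kcnmb4 (-0.090 to 0.14) and Hcn3 (-0.078 to 0.095). The causes were not tested.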
